A study of Mus musculus with 48 samples.

Results

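Metrnl, Esrp2, Uqcc1, Tns4 and Ypel2 are 5 of the 55401 genes counted in mouse colon, and they were taken by symbol because earlier results of the same data showed a genotype difference, or a peak time, that depended on the time of day. Since those values chose the genes, their differences between genotypes and between times are given as descriptions without a test. Bulk RNA was sequenced from the colon of 48 mice, 4 per genotype and circadian time (6 times: CT1, CT5, CT9, CT13, CT17 and CT21). All mice were males of 18 to 20 weeks and were killed in the second day of constant darkness, with CT1, CT5 and CT9 in the circadian day and CT13, CT17 and CT21 in the circadian night. Both genotypes were on a C57BL/6J background and carried floxed Bmal1 alleles (Bmal1 fl/fl). Control littermates were Villin wt/wt, and Bmal1IEC-/- mice were Villin CRE/wt, in which the Villin promoter drives Cre in the epithelial cells of the intestine. Muscle, stromal and immune cells of the colon therefore kept the Bmal1 gene. The fits used 46 mice, without the Bmal1IEC-/- CT1 mice SV384 and SV385, so that 2 mice remained in that group.

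BMAL1 and CLOCK form the transcription factor that switches on the Per and Cry genes, whose proteins then shut it off, and this loop sets the daily rhythm of many other genes in each cell. Colon epithelium also receives timing cues from feeding and from the rest of the body, so that a rhythm in the tissue can come from the clock of its own cells or from outside them. Metrnl encodes a secreted meteorin-like protein that is made by barrier epithelia. Tns4 encodes a tensin, a small adaptor at cell adhesions that binds integrin tails and lacks the actin-binding part of its relatives. Esrp2 encodes an RNA-binding protein that sets epithelial splicing patterns, Uqcc1 a factor for the assembly of mitochondrial respiratory complex III, and Ypel2 a small, highly conserved Yippee-like protein whose role is little known.

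In the GRCm38 build, with GENCODE annotation, Metrnl (ENSMUSG00000039208) lies on the plus strand at chr11:121701544-121716306, and the other 4 genes lie on the minus strand. Those are Esrp2 (ENSMUSG00000084128) at chr8:106130319-106136974, Uqcc1 (ENSMUSG00000005882) at chr2:155846894-155930310, Tns4 (ENSMUSG00000017607) at chr11:99065678-99089306 and Ypel2 (ENSMUSG00000018427) at chr11:86936425-86993707. RefSeq promoter sequence (GRCm38.p6) was matched for 3 of the 5 genes, and Esrp2 and Tns4 had no entry. The 250 bases before the start are shown for these 3 because their genes reached their control maxima at different times of day: Metrnl at chr11:121702177-121702426 on the plus strand, Uqcc1 at chr2:155930311-155930560 on the minus strand and Ypel2 at chr11:86993763-86994012 on the minus strand. Starts are those of RefSeq. For Metrnl the RefSeq start lies downstream of the GENCODE start, so its window falls inside the gene span given above. Capitals mark AGGTCA, a core sequence read by REV-ERB receptors.
Metrnl: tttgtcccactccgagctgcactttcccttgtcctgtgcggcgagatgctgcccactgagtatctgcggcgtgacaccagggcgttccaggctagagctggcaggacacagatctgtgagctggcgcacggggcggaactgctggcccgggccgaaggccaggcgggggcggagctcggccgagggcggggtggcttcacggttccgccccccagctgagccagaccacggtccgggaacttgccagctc
Uqcc1: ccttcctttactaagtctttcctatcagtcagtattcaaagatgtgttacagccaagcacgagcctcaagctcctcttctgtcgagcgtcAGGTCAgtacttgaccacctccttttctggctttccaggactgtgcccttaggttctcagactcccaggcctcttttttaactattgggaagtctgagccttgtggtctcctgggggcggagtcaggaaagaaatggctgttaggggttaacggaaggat
Ypel2: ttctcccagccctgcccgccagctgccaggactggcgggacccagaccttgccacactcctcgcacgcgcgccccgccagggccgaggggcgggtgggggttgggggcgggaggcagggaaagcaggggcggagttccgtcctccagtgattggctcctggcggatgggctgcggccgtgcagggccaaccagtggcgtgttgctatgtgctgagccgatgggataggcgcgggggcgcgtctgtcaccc
Both strands were searched for CACGTG (the E-box bound by BMAL1 and CLOCK), CACGTT, TTATGTAA (the D-box) and AGGTCA. The only match was the AGGTCA of Uqcc1, 160 bases before its start. Of 32851 promoter windows of this length, 6.02% held CACGTG, 3.85% CACGTT, 0.82% TTATGTAA and 14.02% AGGTCA. GC content was 68.4% in the Metrnl window, 49.6% in that of Uqcc1 and 72.0% in that of Ypel2, against a median of 52.4% over all windows. A match is only a run of letters, and these windows hold no readout of binding.

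Counts assigned to genes ranged from 3145000 to 4785840 a library, and 14475 genes had enough counts to be tested. The counts of Arntl, the gene of BMAL1, cover the whole gene and not the floxed part alone, so they do not by themselves check the deletion. Arntl ranged from 15.8 to 283 normalized counts over the 24 control mice and from 84.9 to 180.4 over the 22 Bmal1IEC-/- mice, and its cosine amplitude was 1.85 ± 0.11 against 0.24 ± 0.06 on the log2 scale (SE). The Bmal1IEC-/- CT1 mouse SV385 stood apart, with 3097 summed normalized counts of 4 smooth muscle markers and 33536 of 5 epithelial markers, where the group means over the other mice ran from 12750 to 17420 for muscle and from 17512 to 21640 for epithelium. SV384 had 11580 for muscle and 24703 for epithelium. Single mice in the fits came close to this, with a lowest muscle sum of 11224 (SV481) and a highest epithelial sum of 24143 (SV395). SV384 and SV385 are printed below beside the mice in the fits.

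Each of the 5 genes differed between genotypes at some circadian times and not at others, and the direction was not shared. Metrnl was higher in Bmal1IEC-/- colon at CT1 and lower at CT13, Esrp2 was higher in the circadian day, Uqcc1 was lower in the circadian night, Tns4 was lower from CT5 to CT17, most at CT9, and Ypel2 was higher from CT5 to CT13 and lower at CT21 and CT1. Counting genes whose mice of the 2 genotypes did not overlap at all, 3 of the 5 were apart at CT1 (31% of all genes tested), 2 at CT5 (4.08%), 3 at CT9 (4.23%), 3 at CT13 (13.1%), 2 at CT17 (4.75%) and 1 at CT21 (4.58%). With all 48 mice, 2 of the 5 were apart at CT1, against 19.3% of the genes tested. At CT1, 2 Bmal1IEC-/- mice stood against 4 controls. Nothing is read from these counts, since the genes were chosen for such differences. In bulk tissue, fewer cells of a type and less RNA per cell cannot be told apart.

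**Figure D1:**
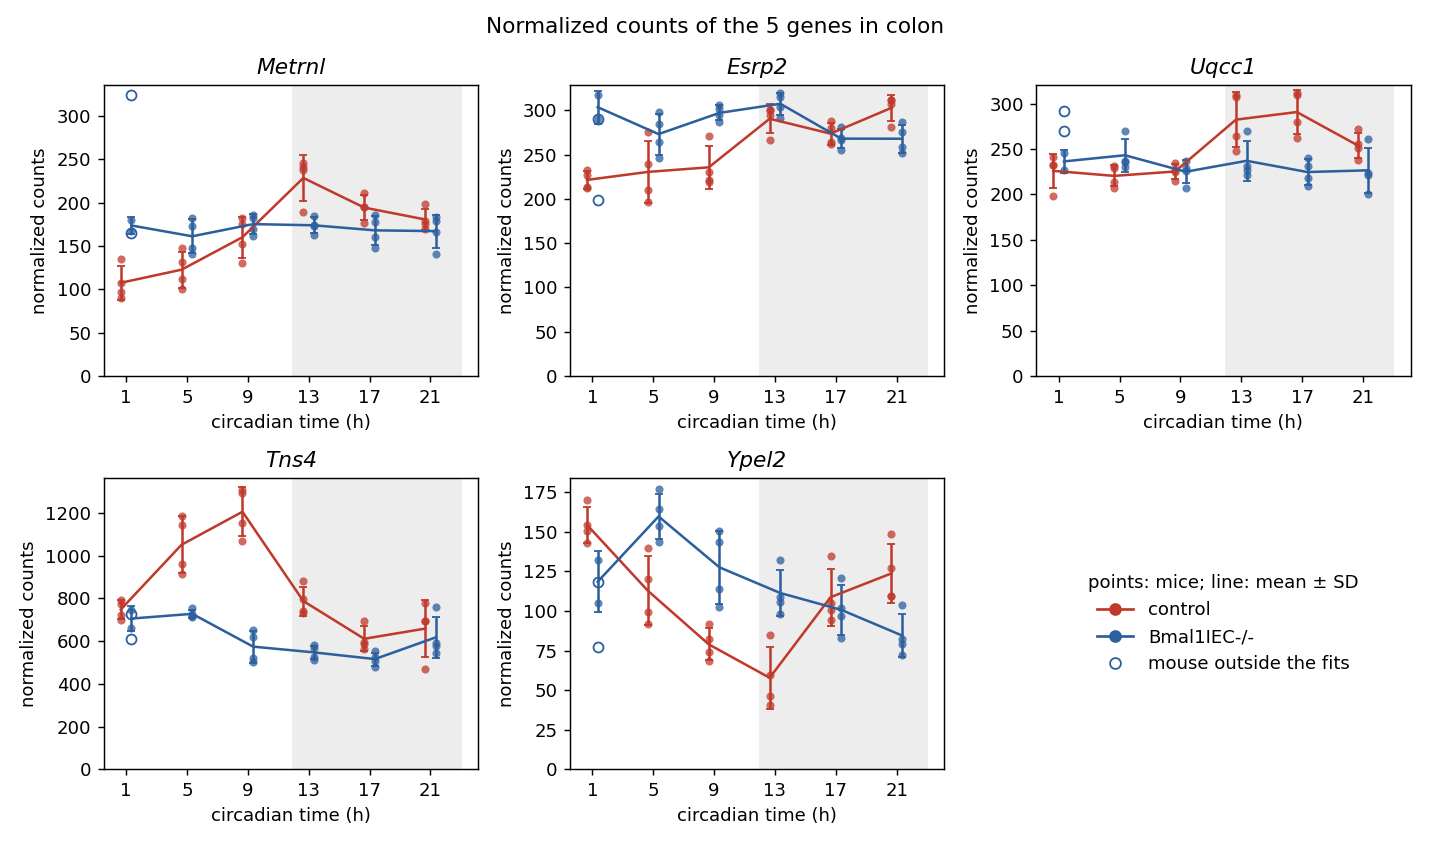
Normalized counts of the 5 genes (vertical axis, from 0) by circadian time in hours (horizontal axis), with 1 point a mouse, lines and bars for the mean ± SD over the 46 mice of the fits, open circles for SV384 and SV385, and grey for the circadian night. Control means of Metrnl run from 108 at CT1 to 229 at CT13, while the Bmal1IEC-/- means stay between 161 and 175; Ypel2 is lowest at CT13 in control mice and lowest at CT21 in Bmal1IEC-/- mice.

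Metrnl differed with the time of day in control colon, low at CT1 and high at CT13, and hardly at all in Bmal1IEC-/- colon. It was higher in Bmal1IEC-/- mice in the early day and lower in the early night. At CT1, the control mice had 90.0, 97.4, 108 and 135 normalized counts, and the Bmal1IEC-/- mice 167 and 180.3, with 166 in SV384 and 324 in SV385. At CT5, the values were 100.3, 112, 131 and 147 in control and 141, 148, 173 and 183 in Bmal1IEC-/- mice. At CT9, they were 130.3, 153, 176 and 182 against 162, 169.8, 183 and 186. All Bmal1IEC-/- mice were above all controls at CT1, and the groups overlapped at CT5 and CT9. At CT13, control mice had 189, 238, 241 and 246 normalized counts of Metrnl and Bmal1IEC-/- mice 163, 174, 174 and 185. At CT17, the values were 177, 194, 195 and 212 against 148, 161, 178 and 186. At CT21, they were 169, 176, 179 and 198 against 141, 166, 179 and 183. The order was turned at CT13, with all controls above all Bmal1IEC-/- mice, and the groups overlapped again at CT17 and CT21.

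The log2 difference of Metrnl (Bmal1IEC-/- minus control) was 0.69 ± 0.15 (SE) at CT1, 0.39 ± 0.12 at CT5, 0.13 ± 0.12 at CT9, -0.39 ± 0.11 at CT13, -0.21 ± 0.12 at CT17 and -0.12 ± 0.12 at CT21. Differences of opposite sign nearly cancelled, and the difference averaged over the 6 times was 0.03 ± 0.07. The highest control mean (229 at CT13) was 2.13 times the lowest (108 at CT1), and the range of the CT13 mice overlapped that of the next group in order, CT17. In Bmal1IEC-/- mice the ratio of the highest to the lowest mean was 1.09, and neighbouring times did not differ beyond the spread of their mice. With SV384 and SV385 included, the highest Bmal1IEC-/- mean was 209 ± 76.8 (SD) at CT1, and the difference at CT1 was 0.95. A 24-h cosine had an amplitude of 0.51 ± 0.06 on the log2 scale with a peak at 14.9 ± 0.5 h in control mice, and an amplitude of 0.04 ± 0.04 in Bmal1IEC-/- mice, where a peak time has no meaning. The control peak lay near that of Per2, the clock repressor, at 14.4 ± 0.2 h.

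Metrnl's only family member, Metrn, was scarce, with 10.5 ± 4.2 (SD, n = 24) normalized counts in control and 10.2 ± 2.6 (n = 22) in Bmal1IEC-/- mice. Kit, a receptor tyrosine kinase that has been described as a receptor for the protein, had 781 ± 156 against 712 ± 126. Kitl, the classical ligand of Kit, had 469 ± 62.5 against 528 ± 86.9, and was higher in Bmal1IEC-/- mice averaged over times by 0.19 ± 0.05 on the log2 scale (adjusted p = 0.0099, edgeR quasi-likelihood F test, Benjamini-Hochberg). None of these 3 genes passed the test of a genotype difference that depends on time, with adjusted p of 0.77 for Metrn, 0.74 for Kit and 0.98 for Kitl.

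Tns4 was the most abundant of the 5 genes per kilobase and had its control maximum at CT9, where the gap between genotypes was widest. At CT1, the control mice had 701, 723, 775 and 792 normalized counts of Tns4 and the Bmal1IEC-/- mice 664 and 747, with 609.5 in SV384 and 724 in SV385. At CT5, the values were 915, 960.3, 1143 and 1186 in control and 712, 718, 725 and 756 in Bmal1IEC-/- mice. At CT9, they were 1069, 1153, 1292 and 1308 against 502, 519, 620.4 and 654. The groups overlapped at CT1 and were fully apart at CT5 and CT9, with Bmal1IEC-/- mice lower. At CT13, control mice had 733, 739, 799 and 879 and Bmal1IEC-/- mice 513, 527, 566 and 581 normalized counts. At CT17, the values were 564, 586, 597 and 696 against 481, 504, 525 and 553. At CT21, they were 468, 692, 695 and 779 against 543, 578, 592 and 757. Bmal1IEC-/- mice were below all controls at CT13 and, by a narrow margin, at CT17, and the lowest mouse at CT21 was a control.

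Tns4 was the only one of the 5 with a lower mean in Bmal1IEC-/- mice at all 6 times. Its log2 difference was -0.09 ± 0.14 (SE) at CT1, -0.53 ± 0.11 at CT5, -1.06 ± 0.11 at CT9, -0.53 ± 0.11 at CT13, -0.24 ± 0.11 at CT17 and -0.09 ± 0.11 at CT21, with an average of -0.45 ± 0.07. The sign at CT1 rested on 1 mouse, since the difference there was 0.01 without SV480. In control mice the order of the means was CT9 (1205 ± 115, SD), CT5 (1051 ± 134), CT13 (787 ± 67.9), CT1 (748 ± 42.9), CT21 (658 ± 133) and CT17 (611 ± 58.3), and of these neighbours CT5 and CT13 alone had ranges that did not overlap. In Bmal1IEC-/- mice the highest mean was 728 ± 19.8 at CT5 and the lowest 516 ± 30.6 at CT17. The cosine amplitude was 0.48 ± 0.06 against 0.25 ± 0.04 on the log2 scale, and the peak was at 7.34 ± 0.43 h in control and 2.80 ± 0.62 h in Bmal1IEC-/- mice, a difference of -4.54 ± 0.75 h.

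The other tensins link integrins to actin and did not pass the test of a time-dependent genotype difference. Tns1 had 1056 ± 90.5 normalized counts (SD, n = 24) in control and 967 ± 106 (n = 22) in Bmal1IEC-/- mice, Tns2 206 ± 48.8 against 192 ± 43.4 and Tns3 718 ± 71.2 against 699.6 ± 61.3. Averaged over times, Tns1 was lower in Bmal1IEC-/- mice by -0.13 ± 0.04 on the log2 scale (adjusted p = 0.0203, edgeR quasi-likelihood F test, Benjamini-Hochberg), and this call was lost with all 48 mice (adjusted p = 0.0631). Tns1 is abundant in smooth muscle, whose 4 markers had group means of 14420 to 17420 summed normalized counts in control and 12750 to 15949 in Bmal1IEC-/- mice, and the part of muscle content in the Tns1 difference was not tested. Tns2 had a control cosine peak at 12.3 ± 1.0 h with an amplitude of 0.34 ± 0.09, and a peak at 11.3 ± 1.1 h with an amplitude of 0.27 ± 0.08 in Bmal1IEC-/- mice. Of 17 focal adhesion genes that work with tensins (integrins, talin, vinculin, paxillin and kinases), 16 were tested and 0 passed the interaction test by edgeR (against 0.58% of all genes tested) or DESeq2, with 3 (Itga6, Zyx and Actn4) at an unadjusted p under 0.05. With all 48 mice, 2 (Zyx and Actn4) passed it by edgeR, when 574 genes passed in all, and 1 (Actn4) passed the changed-rhythm test, when 278 did. Averaged over times, 2 of the 16 were called lower and 0 higher by edgeR, against 5.64% and 5.44% of all genes tested. They were Dlc1, a GTPase-activating protein that binds tensins (-0.27 ± 0.06, adjusted p = 0.0006), and Itga6, a laminin-binding integrin chain (-0.14 ± 0.04, adjusted p = 0.0298).

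Esrp2 was higher in Bmal1IEC-/- than in control colon in the circadian day and close to it at CT13 and CT17. At CT1, the control mice had 213, 213, 227 and 233 normalized counts of Esrp2 and the Bmal1IEC-/- mice 290.4 and 317, with 199 in SV384 and 290.5 in SV385. At CT5, the values were 197, 210.2, 239.6 and 276 in control and 246, 264, 284 and 299 in Bmal1IEC-/- mice. At CT9, they were 219.7, 221, 230.5 and 271 against 286, 295, 302 and 306. The groups were apart at CT9, and at CT1 they were apart in the 46 mice, whereas SV384 lay below all controls. At CT13, control mice had 266, 295, 301 and 301 and Bmal1IEC-/- mice 292, 304, 315 and 319.5 normalized counts. At CT17, the values were 262, 264, 280.5 and 288 against 256, 266, 269 and 282. At CT21, they were 282, 307, 311 and 312 against 252, 259, 275 and 286. The groups overlapped at all 3 night times, with 3 of 4 controls above all Bmal1IEC-/- mice at CT21.

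The log2 difference of Esrp2 was 0.45 ± 0.10 (SE) at CT1, 0.24 ± 0.08 at CT5, 0.34 ± 0.08 at CT9, 0.08 ± 0.08 at CT13, -0.03 ± 0.08 at CT17 and -0.18 ± 0.08 at CT21. With SV384 and SV385 included, the difference at CT1 was 0.31. The control means ran from 222 ± 10.1 (SD) at CT1 to 303 ± 14.4 at CT21, a ratio of 1.37, and the Bmal1IEC-/- means lay between 268 and 308, a ratio of 1.15. The cosine amplitude was 0.21 ± 0.04 with a peak at 16.9 ± 0.8 h in control and 0.07 ± 0.03 with a peak at 10.1 ± 1.6 h in Bmal1IEC-/- mice. Esrp2 shares 219 exonic bases with Nfatc3 and 119 with 1810019D21Rik, which run on the other strand, and the strand setting of the counting is not given in the sources used here. Nfatc3, a calcium-regulated transcription factor, had an adjusted p of 0.97 for the time-dependent genotype difference and a log2 difference of 0.15 ± 0.12 at CT1.

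Esrp1, the close relative of Esrp2 with largely shared splicing targets, ran in the other phase. It had 972 ± 105 normalized counts in control and 999 ± 81.0 in Bmal1IEC-/- mice, and its control cosine peaked at 5.70 ± 0.50 h with an amplitude of 0.19 ± 0.02, against 3.50 ± 1.15 h and 0.10 ± 0.03 in Bmal1IEC-/- mice. Esrp1 did not pass the interaction test (adjusted p = 0.26, edgeR quasi-likelihood F test, Benjamini-Hochberg), although its unadjusted p was under 0.05. Of 11 regulators of epithelial or mesenchymal splicing, Esrp1 among them, 0 passed the interaction test by edgeR (against 0.58% of all genes tested) or by DESeq2, or with all 48 mice, with 2 (Esrp1 and Rbm47) at an unadjusted p under 0.05, and 1 (Rbm47) passed the changed-rhythm test with all 48 mice. Of 11 transcription factors of intestinal or surface epithelium, 0 passed the interaction test by edgeR (against 0.58% of all genes tested) and 1 (Elf3) by DESeq2, with 3 (Grhl1, Ovol2 and Elf3) at an unadjusted p under 0.05. With all 48 mice, 4 of the 11 passed it by edgeR (Grhl1, Elf3, Cdx1 and Hnf4a), when 574 genes passed in all. In that list, 1 of the 11 passed the edgeR test of a changed rhythm, against 0.94% of all genes tested. It was Grhl1, a grainyhead factor of epithelial junction genes (adjusted p = 0.0151). Averaged over times, 2 of the 11 were called higher and 0 lower by edgeR, against 5.44% and 5.64% of all genes tested. They were Grhl1 (0.95 ± 0.11) and Cdx2, the intestinal identity factor (0.26 ± 0.05, adjusted p = 0.0004).

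Uqcc1 was higher in the circadian night than in the day in control colon and nearly level over the day in Bmal1IEC-/- colon. At CT1, the control mice had 198, 232, 232 and 241 normalized counts of Uqcc1 and the Bmal1IEC-/- mice 227 and 245, with 269.8 in SV384 and 292 in SV385. At CT5, the values were 207, 214, 229 and 232 in control and 230.0, 235, 237 and 270.0 in Bmal1IEC-/- mice. At CT9, they were 215, 225, 227 and 234 against 207, 226, 229 and 237. The groups overlapped at all 3 day times. At CT13, control mice had 248, 265, 307 and 309 and Bmal1IEC-/- mice 221, 226, 231 and 269.7 normalized counts. At CT17, the values were 262, 280.2, 309 and 312 against 209, 218, 231 and 240.3. At CT21, they were 238, 251, 256 and 272 against 200.3, 221, 224 and 260.5. All controls were above all Bmal1IEC-/- mice at CT17 only, and at CT13 and CT21 a single Bmal1IEC-/- mouse reached into the control range.

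The log2 difference of Uqcc1 was 0.06 ± 0.11 (SE) at CT1, 0.14 ± 0.09 at CT5, 0.002 ± 0.086 at CT9, -0.25 ± 0.08 at CT13, -0.37 ± 0.08 at CT17 and -0.17 ± 0.09 at CT21. It had the smallest spread of differences over the day among the 5 genes. With SV384 and SV385 included, the difference at CT1 was 0.19. The control means fell into a day group of 220.3 to 226 and a night group of 254 to 291 normalized counts, and the Bmal1IEC-/- means lay between 225 and 243, with neighbours that overlapped throughout. The cosine amplitude was 0.22 ± 0.03 with a peak at 16.3 ± 0.5 h in control mice and 0.04 ± 0.03 in Bmal1IEC-/- mice.

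The 6 other assembly factors of complex III (Uqcc2, Uqcc3, Bcs1l, Ttc19, Lyrm7 and Smim4) did not pass the test of a time-dependent difference, with adjusted p from 0.84 for Smim4 to 0.996 for Uqcc2. Uqcc2 had 80.4 ± 11.4 normalized counts (SD, n = 24) in control and 81.5 ± 12.6 (n = 22) in Bmal1IEC-/- mice, Uqcc3 51.4 ± 9.35 against 53.9 ± 12.9, Bcs1l 64.2 ± 10.3 against 65.1 ± 7.62 and Ttc19 143 ± 14.1 against 147 ± 16.8. Lyrm7 and Smim4 were scarce, at 20.3 ± 5.09 against 24.5 ± 5.98 and 17.3 ± 5.65 against 16.3 ± 4.24. Of 9 subunits, 6 were higher in Bmal1IEC-/- mice averaged over times and 0 lower, against 5.44% of all genes tested that were higher and 5.64% that were lower, and the median log2 difference of the list was 0.13 against 0.005 over all genes. The 6 were Uqcrc1 (0.18 ± 0.04), Uqcrc2 (0.16 ± 0.03), Uqcrfs1 (0.13 ± 0.03), Uqcrb (0.13 ± 0.03), Cyc1 (0.14 ± 0.03) and Uqcrh (0.09 ± 0.03), with adjusted p from 5.5e-05 for Uqcrc2 to 0.0475 for Uqcrh. For the interaction, 0 of the 9 passed by edgeR (against 0.58% of all genes tested) or DESeq2, with 1 (Uqcr10) at an unadjusted p under 0.05, and the same gene passed by edgeR with all 48 mice. Uqcc1 itself averaged -0.11 ± 0.04. Epithelial markers averaged 0.16 for Krt8 and 0.12 for Cdh1, but -0.10 for Epcam, -0.04 for Krt20 and -0.03 for Vil1. The smooth muscle marker Myh11 averaged -0.16. The part of cell content in the averaged differences given here, such as those of the subunits, Kitl, Dlc1 and Cdx2, was not tested.

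Ypel2 had a rhythm in both genotypes, with a later peak in Bmal1IEC-/- colon, so that the genotypes crossed between CT1 and CT5 and again around CT17. At CT1, the control mice had 143, 150.5, 154 and 169.9 normalized counts of Ypel2 and the Bmal1IEC-/- mice 105 and 132, with 77.3 in SV384 and 118 in SV385. At CT5, the values were 91.6, 99.3, 120.5 and 139.8 in control and 144, 154, 164 and 177 in Bmal1IEC-/- mice. At CT9, they were 68.1, 73.9, 82.2 and 91.5 against 102, 114, 143 and 150.5. Every Bmal1IEC-/- mouse was below all controls at CT1 and above them at CT5 and CT9. At CT13, control mice had 40.5, 46.5, 59.3 and 84.9 and Bmal1IEC-/- mice 98.3, 106, 109 and 132 normalized counts. At CT17, the values were 94.2, 100.5, 105 and 135 against 82.9, 96.9, 102 and 121. At CT21, they were 109, 109.8, 127 and 149 against 72.3, 79.1, 82.6 and 104. The groups were apart at CT13, with Bmal1IEC-/- mice higher, overlapped at CT17, and were apart at CT21 with Bmal1IEC-/- mice lower.

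The log2 difference of Ypel2 was -0.38 ± 0.19 (SE) at CT1, 0.50 ± 0.16 at CT5, 0.70 ± 0.16 at CT9, 0.93 ± 0.17 at CT13, -0.11 ± 0.16 at CT17 and -0.56 ± 0.16 at CT21. It spanned 1.48 between its highest and lowest difference, the widest of the 5 genes, and averaged 0.20 ± 0.10. Leaving out SV480 or SV479 moved the CT1 difference to -0.21 or -0.55. The control mean was highest, at 154 ± 11.4 (SD) at CT1, and lowest, at 57.8 ± 19.7, at CT13, a ratio of 2.67, and the Bmal1IEC-/- mean was highest, at 159.8 ± 14.3, at CT5 and lowest, at 84.5 ± 13.7, at CT21, a ratio of 1.89. The cosine amplitude was 0.62 ± 0.09 with a peak at 23.9 ± 0.5 h in control and 0.36 ± 0.07 with a peak at 6.55 ± 0.79 h in Bmal1IEC-/- mice, a peak 6.61 ± 0.95 h later. Samples were 4 h apart, which limits how finely a peak time can be placed.

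**Figure D2:**
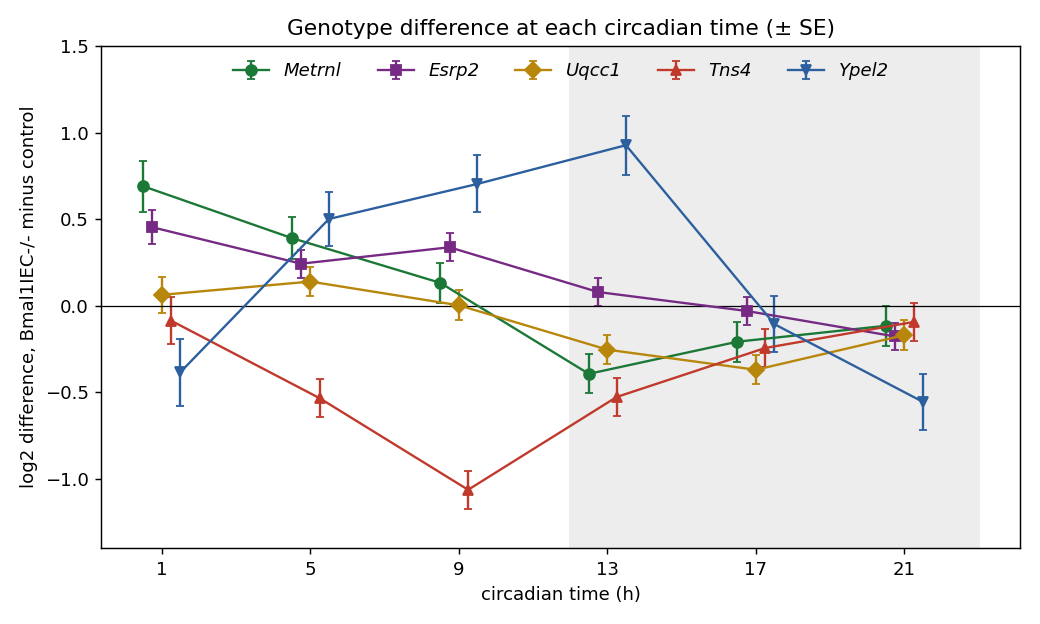
Log2 difference between genotypes (vertical axis, Bmal1IEC-/- minus control, ± SE, 46 mice) by circadian time in hours (horizontal axis), with 1 line a gene, a small sideways offset between genes and grey for the circadian night. Metrnl and Ypel2 lie on both sides of 0, from 0.69 to -0.39 and from 0.93 to -0.56, and Tns4 reaches -1.06 at CT9.

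The 4 other Yippee-like genes did not pass the test of a time-dependent genotype difference. Ypel1 had 13.2 ± 4.26 normalized counts (SD, n = 24) in control and 12.1 ± 4.05 (n = 22) in Bmal1IEC-/- mice, Ypel3 252 ± 37.0 against 240.1 ± 37.7, Ypel4 18.9 ± 5.69 against 15.9 ± 5.04 and Ypel5 204 ± 23.9 against 182 ± 26.3. Averaged over times, Ypel5 was lower in Bmal1IEC-/- mice by -0.15 ± 0.05 on the log2 scale (adjusted p = 0.0285, edgeR quasi-likelihood F test, Benjamini-Hochberg). Ypel4 had a control cosine amplitude of 0.50 ± 0.08 with a peak at 14.0 ± 0.6 h, when Ypel2 was near its lowest, and an amplitude of 0.15 ± 0.15 in Bmal1IEC-/- mice. At these low counts its changed-rhythm test gave an adjusted p of 0.51. Over the 17 genes related to the 5 by family or function, with Kit and Kitl counted beside Metrn, 0 passed the interaction test by edgeR, 0 by DESeq2 and 0 with all 48 mice, and 1, Esrp1, had an unadjusted p under 0.05. Only 0.58% of all genes tested passed the interaction test by edgeR. A count of 0 among 17 therefore does not set the chosen genes apart from their relatives.

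**Figure D3:**
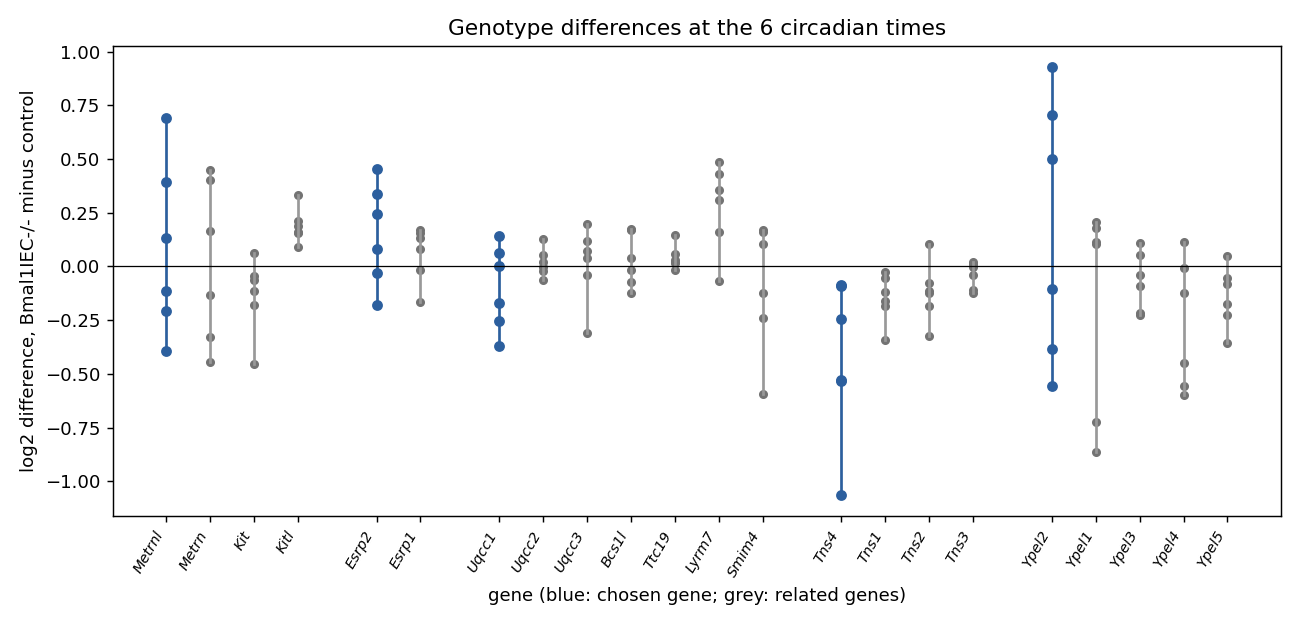
Log2 differences between genotypes (vertical axis, Bmal1IEC-/- minus control) at the 6 circadian times, 1 point a time, for each of the 5 genes (blue) beside 17 genes related by family or function (grey), with a line from the lowest to the highest. Ypel2 runs from -0.56 to 0.93; Ypel1, at 12.7 normalized counts, spans 1.07 and did not pass the interaction test.

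Compared side by side, the cosine fits of the 5 genes differed in how much amplitude was kept. Metrnl, Esrp2 and Uqcc1 peaked in the control night, between 14.9 and 16.9 h, and kept amplitudes of 0.07 or less on the log2 scale in Bmal1IEC-/- mice. Tns4 and Ypel2 peaked at 7.34 and 23.9 h in control mice and kept amplitudes of 0.25 and 0.36. The peak of Bmal1IEC-/- mice differed from that of control mice by -4.54 ± 0.75 h for Tns4, 6.61 ± 0.95 h for Ypel2 and -6.78 ± 1.80 h for Esrp2, whose Bmal1IEC-/- amplitude was 0.07 ± 0.03. The ratio of the Bmal1IEC-/- to the control amplitude was 0.07 for Metrnl, 0.34 for Esrp2, 0.16 for Uqcc1, 0.52 for Tns4 and 0.58 for Ypel2. Among clock genes the same ratio was 0.13 for Arntl, 0.36 for Per2, 0.60 for Dbp, an output factor, and 0.90 for Nr1d1, which encodes REV-ERB alpha. Peak times of these 4 clock genes differed between genotypes by -1.41 ± 0.53 h for Dbp, 0.34 ± 0.40 h for Nr1d1, 0.48 ± 1.0 h for Arntl and 0.60 ± 0.45 h for Per2, with later peaks in Bmal1IEC-/- mice positive.

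**Figure D4:**
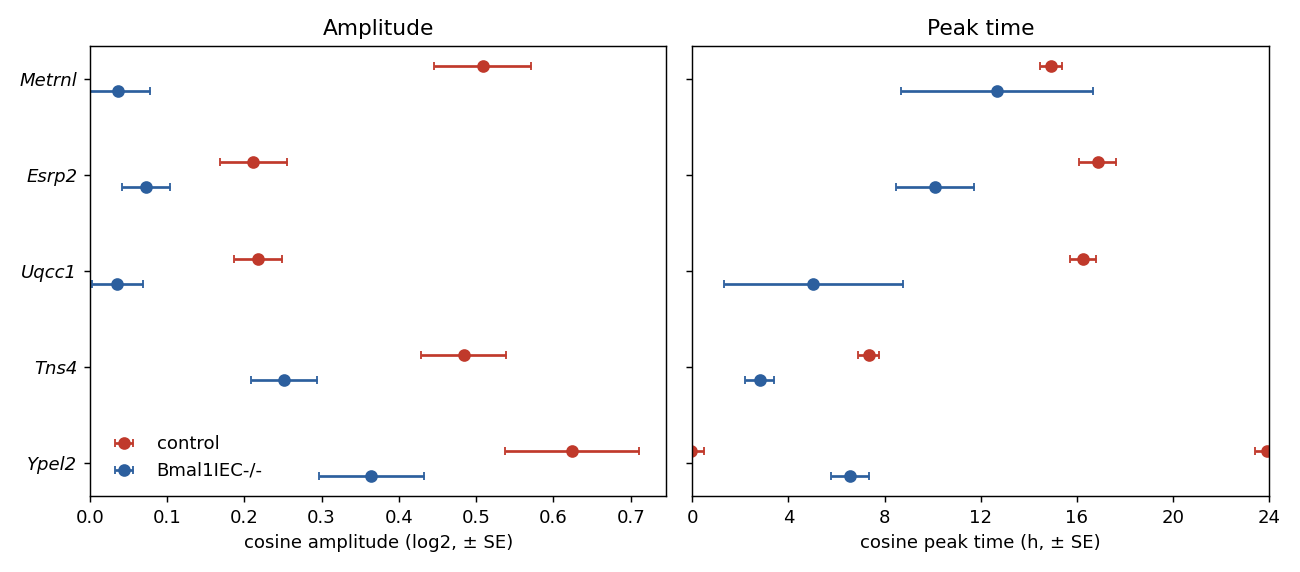
Amplitude on the log2 scale (left) and peak time in hours (right) of 24-h cosines fitted to each gene in control (red, n = 24) and Bmal1IEC-/- mice (blue, n = 22), with bars for ± SE; a peak close to 24 h is drawn at both edges. The control amplitude is the larger in each of the 5 genes, and the Bmal1IEC-/- peaks of Metrnl and Uqcc1 have wide errors because their amplitudes are 0.04.

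In the tests across all genes, 4 of the 5 genes (all but Uqcc1) were called for the genotype-by-time interaction, as were 0.58% of the genes tested, and 5 of 5 for a changed rhythm, as were 0.94%. For a day-against-night difference that depends on genotype, 3 of the 5 (Metrnl, Esrp2 and Uqcc1) were called, as were 0.0691% of the genes tested. At single times, 2 of the 5 were called at CT1 (1.51% of the genes tested), 1 at CT5 (0.456%), 3 at CT9 (1.82%), 3 at CT13 (4.72%), 1 at CT17 (1.11%) and 0 at CT21 (0.394%). DESeq2 also gave 0 at CT21, where 2 had an unadjusted p under 0.05 by edgeR. By edgeR or DESeq2, 0 of the 5 were called for an average difference of over 1.5-fold, against 1.36%, although Esrp2 and Tns4 passed the adjusted p of edgeR alone. The genes were chosen on these contrasts, so the counts describe the choice. Over all genes tested the median span between the highest and the lowest log2 difference of the 6 times was 0.46, and the spans of Metrnl (1.08), Esrp2 (0.63), Uqcc1 (0.51), Tns4 (0.98) and Ypel2 (1.48) were larger than those of 89.0%, 67.5%, 55.6%, 85.8% and 95.2% of genes. Without CT1, 2 of the 5 genes were called for the interaction (30 genes in all) and 0 for day against night, and with DESeq2 5 (196 in all) and 3. With all 48 mice, 5 were called for the interaction (574 in all) and 2 for day against night (18 in all). With no filter on low counts these were 4 (803 in all) and 1 (9 in all). For the changed rhythm, 4 of the 5 were called without CT1, with all 48 mice and with no filter, and 5 with DESeq2.

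The 19 clock genes give the measure of such a change in the same colon libraries. Of these, 10 passed the interaction test (0.58% of all genes tested) and 10 the changed-rhythm test (0.94%). Averaged over times, 5 were higher (5.44% of all genes tested) and 8 lower (5.64%) in Bmal1IEC-/- mice. Among those past the interaction test were Arntl (adjusted p = 8.5e-13 for the interaction, edgeR quasi-likelihood F test, Benjamini-Hochberg), Cry1 (2.2e-10), a repressor, and Nfil3 (3.0e-09), a D-box repressor. The log2 difference of Cry1 was 2.91 at CT5 and 0.62 at CT17, and that of Nfil3 2.81 at CT9 and -0.03 at CT21. The median span of the clock list was 2.02, above the span of each of the 5 genes.

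Normalized counts per kilobase of exon set the 5 genes on a common scale of level. Tns4 had 163 ± 45.6 (SD over 24 mice) in control and 117 ± 18.2 (22 mice) in Bmal1IEC-/- mice, Metrnl 104.5 ± 28.9 against 107 ± 9.15, Esrp2 59.7 ± 8.50 against 65.6 ± 5.0, Uqcc1 41.3 ± 5.56 against 38.3 ± 2.96 and Ypel2 21.9 ± 7.25 against 24.1 ± 5.99. In control mice the ranges of neighbours in this order overlapped between Tns4 and Metrnl, between Metrnl and Esrp2, between Esrp2 and Uqcc1, and between Uqcc1 and Ypel2. The SD over mice was smaller in Bmal1IEC-/- than in control mice for each of the 5 genes. For Ypel2 alone, the counted identifier had another version than in GENCODE vM21, so the exons counted may differ from those behind its level per kilobase. For Esrp2, 5.30% of its 50-base windows also occur in another gene, and for the other 4 genes the share was 0.841% or less.

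Over the 12 group means, Metrnl ran most like Ppp1r16a (Pearson r = 0.96), a phosphatase subunit, Sec13, Pex6, Per2 (r = 0.94) and Edf1. Esrp2 ran most like Mafg (r = 0.93), a small Maf factor, Maz, Elf3, Tmem11 and Spire2, and Uqcc1 most like Slc22a5 (r = 0.87), the carnitine transporter, Smim3, Slc19a2, Plek2 and Dnah10. Tns4 ran most like Ank3 (r = 0.95), a membrane adaptor, Epcam (r = 0.91), an epithelial adhesion protein that is also 1 of the 5 epithelial markers, Abcc2, Gcnt3 and Anxa7. Ypel2 ran most like Map3k5 (r = 0.91), a stress kinase, Plcb2, Ccdc122, 1700010I14Rik and Bco2. Among the 5 genes themselves, r was 0.79 between Metrnl and Esrp2, 0.67 between Metrnl and Uqcc1, 0.41 between Esrp2 and Uqcc1, -0.64 between Esrp2 and Tns4 and -0.56 between Metrnl and Ypel2. These are descriptions over 12 points from the same libraries, and the lists were not stable to the choice of correlation.

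Markers of the cell types in the colon were read in the same mice. The summed level of the 5 epithelial markers ran from 16582 to 23484 normalized counts over control mice and from 18406 to 24143 over Bmal1IEC-/- mice, and its group mean at CT1 was 17512 in control against 21018 in Bmal1IEC-/- mice, the lowest of the control means and near the highest of the others. Summed markers of most other cell types were also apart at CT1, and lower in Bmal1IEC-/- mice, with no overlap of control and Bmal1IEC-/- mice. These were goblet cells (80541 against 55628), smooth muscle (17104 against 13362), fibroblasts (2318 against 1464), macrophages (276 against 207), endothelium (281 against 210.3), glia and neurons (97.4 against 75.4) and T cells (34.4 against 23.7). With 2 mice against 4 at CT1, 31% of all genes tested did not overlap either. The sums of B and plasma cells (967 against 1382) and pancreas (167 against 174) had higher means in Bmal1IEC-/- mice at CT1, and their groups overlapped. Markers within a sum were not alike. The CT1 log2 difference was -0.63 for Muc2, the bulk of the goblet sum, and -0.58 for Clca1, but 0.01 for Tff3 and 0.13 for Fcgbp. In smooth muscle it ran from -0.52 for Myh11 to -0.01 for Des. At CT13 the groups overlapped in each of the sums named, with means of 74336 against 56520 for goblet cells, 14420 against 12750 for smooth muscle and 2054 against 1726 for fibroblasts. The part of these cell types in the CT1 and CT13 differences of the 5 genes was not tested. None of the 5 epithelial, 4 goblet or 4 smooth muscle markers had a mean under 3, whereas 1 of 3 B and plasma cell markers and 2 of 3 pancreas markers did. Taken relative to the summed epithelial markers, the CT1 log2 differences became 0.44 for Metrnl, 0.19 for Esrp2, -0.20 for Uqcc1, -0.35 for Tns4 and -0.65 for Ypel2. At CT21 they became -0.30 for Esrp2 and -0.29 for Uqcc1. On this scale the differences of Metrnl and Esrp2 at CT1 were smaller and those of Tns4 and Ypel2 larger, and the part of epithelial content in them was not tested further. The 5 markers were not alike, with CT1 log2 differences from 0.02 for Epcam to 0.43 for Krt20. Krt20 itself passed the interaction test (adjusted p = 0.0247, edgeR quasi-likelihood F test, Benjamini-Hochberg), and its difference was -0.45 at CT13. The scale is therefore not a correction for epithelial content alone.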

How the data were processed

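Colon RNA of 48 mice in 12 groups was measured by sequencing, and the sources state that reads were trimmed with Trimmomatic 0.39, aligned with STAR 2.7.5c and assigned with featureCounts 1.4.6. The authors deposited 1 table of raw read counts per gene and mouse, with no normalization; the strand setting and the annotation release are not given in the sources used here. Identifiers were matched to GENCODE vM21 symbols without their version (55141 of 55401).

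Genes kept by filterByExpr (14475) were tested with edgeR 4.0.16 (TMM, quasi-likelihood F tests, Benjamini-Hochberg adjustment over all genes tested, threshold 0.05, and 1.5-fold for the average) in R 4.3.3. The models were genotype, time and their interaction; genotype plus time; genotype by period (day or night); genotype by a 24-h cosine and sine; and 1 contrast a time. The SE of a log2 difference was computed from that difference and its F statistic. It rests on a spread shared over all groups and not on the mice of 1 time alone. For display, each library was scaled by its size factor over the 48 mice (DESeq2 1.42.0), which gave the normalized counts. Cosines were fitted to log2 normalized counts with a pseudocount of 1, and gene levels per kilobase used merged exons. The fits used 46 mice because the size factors behind a table of control values issued with the study were matched only when SV384 and SV385 were left out (largest median relative deviation 7.15e-07, against 0.000762 or more for other pairs). With 2 to 4 mice a group and totals of 3145000 to 4785840 counts, precision is set by the spread between mice, and each mouse is 1 replicate.

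The 5 genes and the gene lists were chosen with earlier results of these data known. Genes were named by rule: the 5 genes, Arntl, members of the 5 families, at most 4 genes a list by smallest p among those past the interaction or changed-rhythm threshold, Dbp, Nr1d1 and Per2 as references, and the 5 genes most like each. A gene of the clock list that this rule names is not reported here. Kept outside this rule and chosen after their values were seen are Nfatc3, Cdx1, Cdx2, Hnf4a, Ovol2, Rbm47, Dlc1, Itga6, Zyx, Actn4, the single cell type markers given with values and the named complex III subunits. Alternatives were all 48 mice, RLE normalization, no filter or a filter of 1 CPM, DESeq2, leaving out each mouse, Spearman correlation, and, chosen after seeing the data, leaving out CT1, TMM for cosines and a scale relative to epithelial markers. In simulated counts for 14475 genes, 94.5% of 200 genes with a 2-fold change up at CT13 and down at CT1 were recovered by the interaction test, with 16 false calls among 13875 unchanged genes. The span of that change was wider than the span of any of the 5 genes, at most 1.48 on the log2 scale. The changed genes were also drawn from the better counted ones. Recovery of smaller changes, or of changes in scarce genes, was not simulated.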

Additional observations from a re-analysis of the deposited data

Results flagged for a closer look

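In groups of 4 mice, 3 of 60 gap checks of the 5 genes found a mouse far from the other 3, where chance gives about 1 in 20, or 3.0. Metrnl was at 324 normalized counts in the Bmal1IEC-/- CT1 mouse SV385, high against the other 3, and at 189 in the control CT13 mouse SV396, low against the other 3. Esrp2 was at 282 in the control CT21 mouse SV433, also low against its group. SV385 is outside the fits. Its smooth muscle markers summed to 3097 normalized counts, and their part in its Metrnl value was not tested.

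Metrnl and Ypel2 differed between genotypes in opposite directions at different times, with no overlap of the mice, and these differences between times were not tested because the genes were chosen for them. For Metrnl, the log2 difference was 0.69 at CT1 and -0.39 at CT13. That of Ypel2 was -0.38 at CT1, 0.50 at CT5, 0.70 at CT9, 0.93 at CT13 and -0.56 at CT21. Among clock genes, the genotype difference depended on time by the interaction test for Arntl (adjusted p = 8.5e-13, edgeR's quasi-likelihood test), Cry1 (2.2e-10), Nfil3 (3.0e-09), Per2 (6.1e-09) and Dbp (0.0363).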

How the results depend on the processing

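Called averaged differences of the listed genes outside the clock list kept their direction in the alternatives that refitted them. Other called results were followed by counts or adjusted p alone, which hold no direction. Without SV480, Tns4 at CT1 had a log2 difference of 0.01, given as a description. With all 48 mice the count of genes called was 574 for the interaction (84 with 46 mice), 278 for the changed rhythm (136), 18 for day against night (10) and 3593 at CT1 (218). With no filter it was 803 for the interaction, 319 for the average (197), 621 at CT1, 224 at CT5 (66), 456 at CT9 (263), 349 at CT17 (161) and 302 at CT21 (57), and with DESeq2 196 for the interaction and 369 at CT1. Without CT1 it was 30 for the interaction and 52 for the changed rhythm, and Grhl1 (adjusted p = 0.315, edgeR; 0.0512 with no filter), Tns1 and Uqcrh lost their calls. Tns1, Ypel5, Uqcrh and Itga6 lost theirs with no filter, and Uqcrh in 32 of 46 fits without 1 mouse. The cause was not tested.

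Leaving out each mouse gave 52 to 143 genes for the interaction, 110 to 162 for the changed rhythm, 7 to 15 for day against night, 188 to 213 for the average, 12 to 322 at CT1, 38 to 72 at CT5, 189 to 297 at CT9, 412 to 775 at CT13 (683 with all), 113 to 178 at CT17, 38 to 74 at CT21, and 0 to 0 of the 17 related genes. Moves of over 1.5 times came without SV480 (interaction 52, CT1 12, which leaves 1 Bmal1IEC-/- mouse there), SV479 (53 and 18), SV469 (interaction 143), SV468, SV454 and SV455 (CT1 79, 97 and 108), SV447 and SV443 (CT5 38 and 43) and SV424, SV397 and SV396 (CT13 412, 432 and 439). Of the 5 genes most like each, Spearman correlation shared 0 for Metrnl, 1 for Esrp2, 0 for Uqcc1, 1 for Tns4 and 1 for Ypel2, and 48 mice shared 3 for Metrnl, 2 for Esrp2 and 2 for Uqcc1. No paired analysis was possible because replicate labels are mouse numbers that no 2 groups share. Among the related genes, counts near 10 to 20 a mouse (Metrn, Ypel1, Ypel4, Smim4) limit what could be detected.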
